A study of Mus musculus with 33 samples.

Results

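The activators of the circadian clock and the nuclear receptors that control them were followed in mouse dorsal skin through the hair growth cycle. The group holds 7 genes: the activators Arntl (which encodes BMAL1), Clock and Npas2, the REV-ERB receptors Nr1d1 and Nr1d2, the ROR receptor Rora, and Bhlhe40, which encodes the repressor DEC1. They were chosen by name, with earlier results of these data known. They are 7 of the 12867 genes with a probe set that has a single gene symbol and passed the filter on low signal. The array carries 21 probe sets for these symbols, 19 of which passed that filter. Each gene is described by its main probe set, the one with the highest mean log2 signal over all 33 arrays, and all 7 main probe sets passed.

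Skin came from 33 wild-type C57BL/6 mice, 1 array for each mouse. In the natural second hair cycle the groups were early anagen (P23 and P25, postnatal days 23 and 25, 4 arrays), mid anagen (P27, 3 arrays), late anagen (P29, 3 arrays), early catagen (P37 and P39, 6 arrays), mid catagen (P41, 3 arrays) and telogen (P44, 3 arrays). P34, which the series design also places in late anagen, has 1 array, which entered only alternative fits and the estimates over all 33 arrays. In the depilation cycle, skin in telogen was stripped of hair with a wax and rosin mixture, and D3, D5, D8, D12 and D17, named for the days after depilation, have 2 arrays each. The design text matches D3 to early anagen, D5 to mid anagen, D8 and D12 to late anagen and D17 to early catagen. The depilated mice were all female and at least 50 days old, so depilation and age cannot be told apart between the cycles. Sex also differs between the cycles, since 13 of the 23 mice of the natural cycle were male. It entered as a covariate only in an alternative fit. Within the natural cycle each phase is also a different age.

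In the core loop of the clock BMAL1 pairs with CLOCK or with its relative NPAS2, and the pair binds E-boxes and switches on the Per and Cry genes, Nr1d1, Nr1d2, Bhlhe40 and Dbp. PER and CRY proteins then block the pair. In another loop the REV-ERB receptors repress, and the ROR receptors activate, Arntl, Clock and Npas2 through a shared response element. The level of most of these genes swings over the day, REV-ERB and BMAL1 in opposite phase. All skin was taken within a window of hours in the light phase, and the hour for each mouse is not given in the sources used here, so the part of the hour in any value below was not tested.

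The arrays had been scaled to 1 mean, and the trimmed mean signal lay between 496.8 and 498.4 on every array. Replicate arrays of a time point correlated at 0.943 to 0.980 over the kept probe sets. All 8 skin markers (keratinocyte and dermal genes such as Krt5, Krt14 and Col1a1) were present, with no signal under 716. On P25 replicate 2, labelled male, Xist gave 561, against at most 137 on the other 12 male arrays and at least 8429 on the 20 female arrays, while its Y-linked genes were at male levels, and results that rest on early anagen are also given without it. In whole skin, fewer cells of a type and less RNA per cell cannot be told apart.

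The promoters of Arntl and Nr1d1 are shown because they hold matches to the elements through which the receptors and the activators are known to act. RefSeq (GRCm38.p6) gives windows of 300 bases, 250 before and 50 after a gene start, for 6 of the 7 genes, 9 windows in all. Capitals in the Arntl window (chr7:113207261-113207560, plus strand) mark matches to the core of a ROR response element, GTAGGTNA, and capitals in the Nr1d1 window (chr11:98775328-98775627, minus strand) mark a match to the E-box variant CACGTT on the opposite strand.
Arntl: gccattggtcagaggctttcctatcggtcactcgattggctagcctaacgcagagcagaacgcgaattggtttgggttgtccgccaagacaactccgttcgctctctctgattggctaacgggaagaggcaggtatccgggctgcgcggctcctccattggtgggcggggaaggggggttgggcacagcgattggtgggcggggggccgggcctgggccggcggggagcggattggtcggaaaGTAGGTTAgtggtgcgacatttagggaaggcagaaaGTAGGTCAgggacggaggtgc
Nr1d1: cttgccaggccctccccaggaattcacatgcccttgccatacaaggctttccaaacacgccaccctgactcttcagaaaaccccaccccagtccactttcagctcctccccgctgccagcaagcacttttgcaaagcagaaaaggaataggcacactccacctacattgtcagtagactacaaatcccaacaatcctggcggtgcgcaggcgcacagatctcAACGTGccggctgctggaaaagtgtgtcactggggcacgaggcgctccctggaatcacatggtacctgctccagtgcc

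In the Arntl window both ROR element cores lie around the gene start, at chr7:113207504-113207511 and chr7:113207540-113207547. Another, overlapping Arntl window also holds the match that starts at 113207504, no window of the other genes has this motif, and no match overlaps one of another motif. Searched on both strands, GTAGGTNA occurs in 2.14% of all 32851 windows. The Nr1d1 match, at chr11:98775400-98775405, is the only CACGTT in the 9 windows, and 4.68% of all windows hold this motif. Neither the E-box CACGTG, which 7.15% of all windows hold, nor the D-box TTANGTAA, in 2.32%, is in any of the 9 windows. A match of letters is a description and not a measured binding site.

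Over the natural cycle all 7 genes varied among the 6 phases (limma F test, adjusted p under 0.05), where 72.6% of all probe sets did. Arntl gave F = 22.3 (adjusted p = 2.8e-06), Rora 19.1 (adjusted p = 7.0e-06) and Clock 15.7 (adjusted p = 2.2e-05), and Nr1d1 had the smallest value, F = 4.70 (adjusted p = 0.0103). The REV-ERB genes, Rora and Bhlhe40 were highest in telogen. Arntl and Npas2 were highest in mid catagen, and Clock in early anagen and mid catagen.

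**Figure D1:**
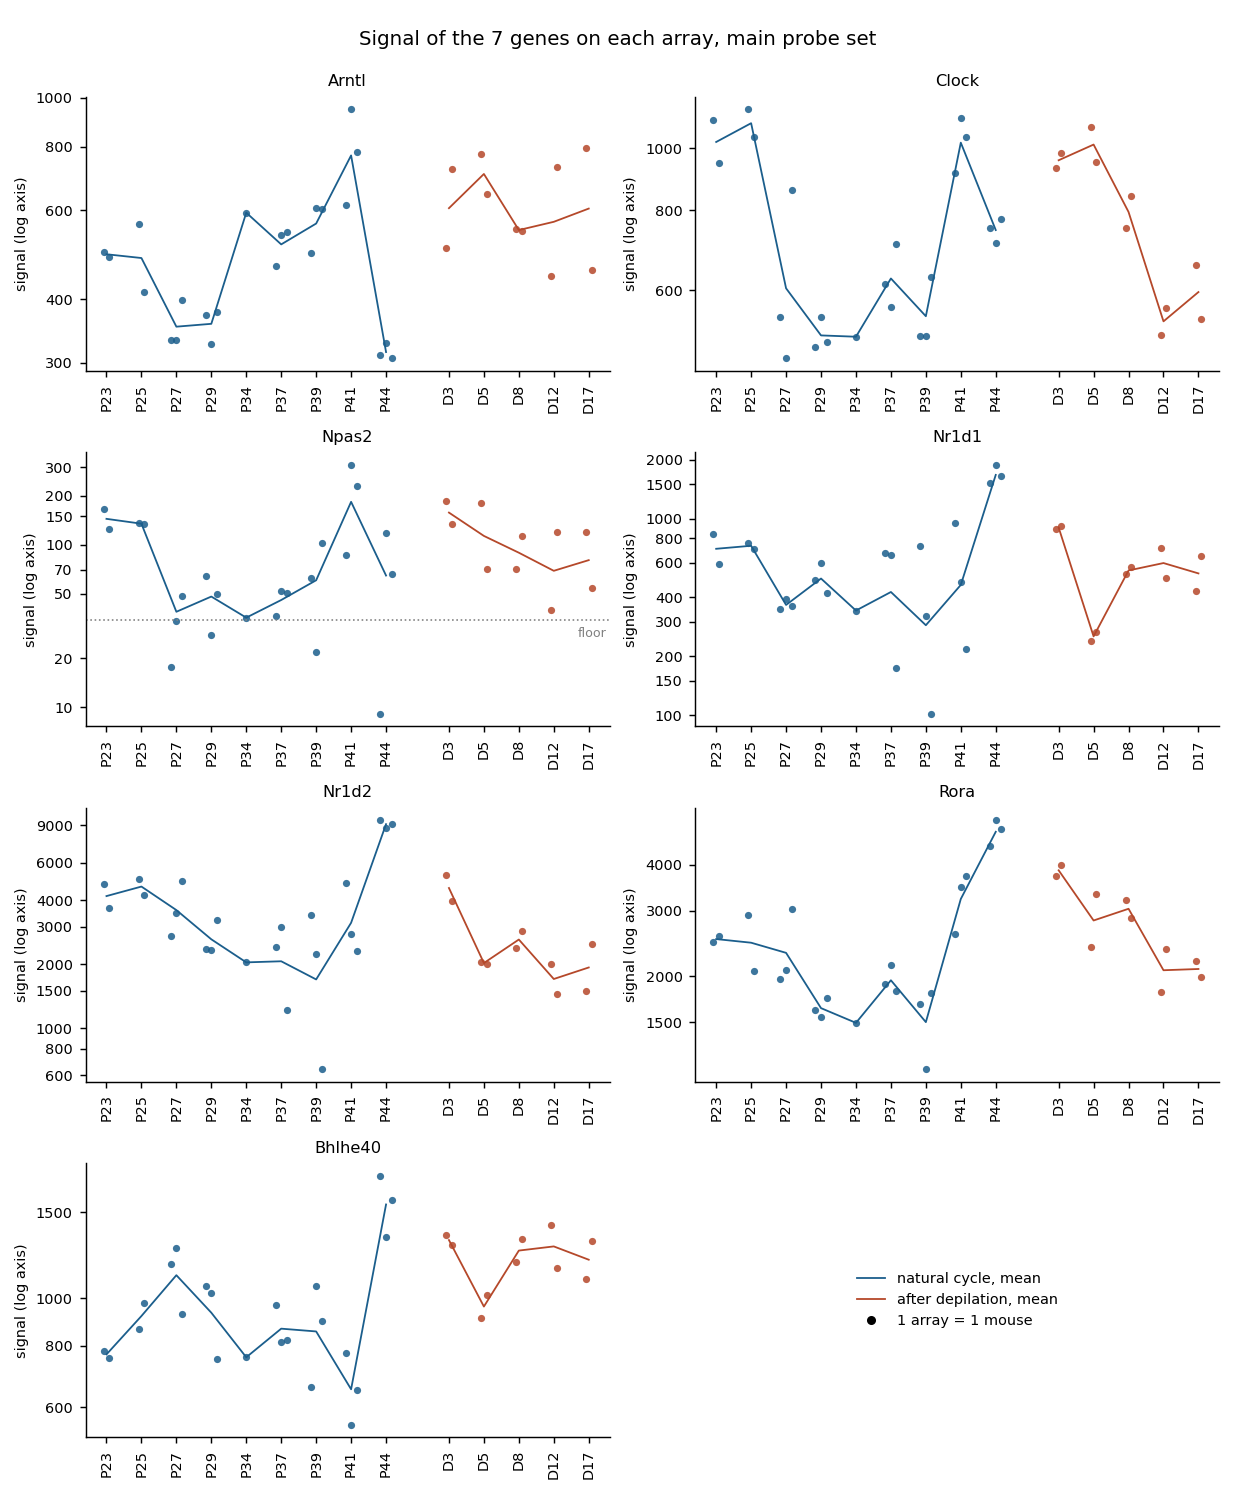
Signal of the main probe set of each gene (log axis) on each of the 33 arrays, by postnatal day in the natural cycle (blue) and day after depilation (red). Points are single mice and lines join time point means of log2 signal, with values under the floor of 34.6 set to it for the mean. Nr1d1, Nr1d2, Rora and Bhlhe40 peak at P44, where Arntl is lowest at 306 to 328.

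Arntl, the partner shared by both activator pairs, had signals of 497 and 485 at P23, 564 and 413 at P25, 333, 332 and 399 at P27, and 372, 327 and 377 at P29. It then gave 593 at P34, 466, 535 and 543 at P37, 493, 606 and 602 at P39, and 613, 948 and 783 at P41. At P44 it was 311, 328 and 306. Thus the highest and lowest levels of Arntl stood next to each other in the cycle, with all mid catagen arrays above all telogen arrays. Telogen was 2.44-fold below mid catagen, a log2 difference of -1.29 ± 0.18 (SE, limma adjusted p = 0.0138). Early anagen averaged 490 ± 61.8 (SD, n = 4), against 315 ± 12.0 in telogen (SD, n = 3), a rise of 0.63 ± 0.13 on the log2 scale (adjusted p = 0.0130) with no overlap.

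Clock gave 1106 and 947 at P23 and 1151 and 1042 at P25, then 545, 469 and 861 at P27. It was 488, 544 and 498 at P29, 507 at P34, 613, 564 and 708 at P37 and 509, 509 and 628 at P39. At P41 it gave 916, 1116 and 1041 and at P44 750, 712 and 774. The level was therefore high in early anagen and mid catagen and low in late anagen and early catagen. Mid anagen fell by 0.81 ± 0.21 on the log2 scale relative to early anagen (adjusted p = 0.0359), mid catagen was 0.80 ± 0.13 above early catagen (adjusted p = 0.00212), and telogen was 0.55 ± 0.12 above late anagen (adjusted p = 0.0105). With P23 replicate 1 or 2, P25 replicate 1 or 2, or P27 replicate 1 or 2 left out, the adjusted p of the mid anagen call was between 0.0563 and 0.124. The difference then stayed between -0.63 and -0.86, and calls over all probe sets fell from 5320 to between 1580 and 4460.

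Npas2, the CLOCK relative that can take its place beside BMAL1, had low signals, and 5 of its 33 values lay under the floor of 34.6 to which low signals were set. It gave 166 and 126 at P23 and 136 and 134 at P25, and then 17.7, 33.8 and 48.4 at P27. Values of 64.4, 27.9 and 49.7 followed at P29, 35.6 at P34, 36.6, 51.8 and 50.4 at P37 and 62.8, 102 and a value under the floor at P39. P41 gave 86.5, 311 and 232 and P44 gave 9.10, 119 and 65.8. All early anagen arrays were above all mid anagen arrays. The fitted difference was -1.85 ± 0.17 on the log2 scale (adjusted p = 0.00202), with 2 of the 3 mid anagen arrays set to the floor. Mid catagen was 1.81 ± 0.43 above early catagen (adjusted p = 0.0116), although the groups overlapped and 1 early catagen array was at the floor.

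Nr1d1, which encodes REV-ERBα, gave 840 and 592 at P23, 756 and 706 at P25, 348, 390 and 359 at P27, 492, 598 and 419 at P29 and 342 at P34. In catagen its replicates spread widely, with 672, 653 and 175 at P37, 727, 322 and 102 at P39 and 950, 478 and 217 at P41. P44 then gave 1518, 1885 and 1646, each above every other array of the series. Early anagen was 2.33-fold below telogen, -1.22 ± 0.15 on the log2 scale (adjusted p = 0.00212), and telogen was 3.37-fold above late anagen (1.75 ± 0.17, adjusted p = 5.4e-04). Telogen was also 1.86 ± 0.51 above mid catagen with no overlap, at an adjusted p of 0.0864. Fitted jointly on 33 arrays, so that the spread of the catagen mice entered, the difference between early anagen and telogen had an adjusted p of 0.0678.

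Nr1d2, the REV-ERBβ gene, gave 4747 and 3684 at P23, 5055 and 4252 at P25, 2717, 3469 and 4924 at P27, 2369, 2338 and 3242 at P29 and 2040 at P34. It was 2414, 2999 and 1215 at P37, 3393, 2242 and 641 at P39 and 4796, 2764 and 2316 at P41, with P37 replicate 3 and P39 replicate 3 lowest, as for Nr1d1. At P44 it was 9497, 8705 and 9151. The telogen mice lay close together and above every other array. Telogen was 1.80 ± 0.16 above late anagen (adjusted p = 4.2e-04) and 1.54 ± 0.27 above mid catagen on the log2 scale (adjusted p = 0.0299), and early anagen fell by 1.05 ± 0.14 relative to telogen (adjusted p = 0.00249).

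Rora encodes RORα, which competes with the REV-ERB proteins for the same elements and activates from them. Its signals were 2472 and 2564 at P23, 2930 and 2067 at P25, 1962, 2074 and 3031 at P27, 1621, 1553 and 1744 at P29 and 1494 at P34. Early catagen gave 1903, 2137 and 1817 at P37 and 1684, 1119 and 1794 at P39, and mid catagen gave 2599, 3477 and 3735. Telogen, with 4501, 5273 and 4988, was above every other array. Rora and both REV-ERB genes thus had their highest values in the same telogen mice. Telogen exceeded late anagen by 1.58 ± 0.13 on the log2 scale (3.00-fold, adjusted p = 2.9e-04), mid catagen exceeded early catagen by 0.92 ± 0.20 (adjusted p = 0.00798), and early anagen differed from telogen by -0.98 ± 0.14 (adjusted p = 0.00387).

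Bhlhe40, whose protein DEC1 competes for E-boxes, was highest in telogen and lowest in mid catagen. It gave 782 and 755 at P23, 864 and 980 at P25, 1174, 1268 and 931 at P27, 1059, 1024 and 753 at P29 and 758 at P34. P37 had 971, 816 and 823, P39 had 658, 1061 and 898 and P41 had 773, 552 and 650. P44 gave 1779, 1332 and 1586, and these were the 3 highest values of the natural cycle. Telogen was 2.38-fold above mid catagen (1.25 ± 0.18 on the log2 scale, adjusted p = 0.0153), and early anagen fell to 845 ± 101 (SD, n = 4), against 1566 ± 224 in telogen (SD, n = 3, log2 difference -0.89 ± 0.15, adjusted p = 0.00618).

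Set out by phase step, 6 of the 7 genes changed between telogen and early anagen, where 26.8% of all probe sets did. Arntl and Clock rose (13.5% of all probe sets were higher) and Nr1d1, Nr1d2, Rora and Bhlhe40 fell (13.2% were lower). Npas2 did not pass in the main fit, at 1.11 ± 0.38 higher in early anagen with 1 telogen array at the floor (adjusted p = 0.0663). It passed in some alternative fits, given below. Without P25 replicate 2 the same 6 genes passed. With only the 2 arrays of P25 as early anagen, 2 genes passed, Nr1d1 and Nr1d2. The activator calls were each lost without 1 of the telogen arrays. Clock had an adjusted p of 0.0535 without P44 replicate 2 and Arntl 0.0506 without P44 replicate 3. The median log2 difference of the 7 genes was -0.89, against -0.05 over all probe sets. In the same step 5 of 5 genes of dividing cells rose, with summed signals of 14745 to 19539 in early anagen and 1518 to 1990 in telogen, and 5 of 9 myocyte genes and 4 of 5 leukocyte genes fell, and their part in the values was not tested.

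Between early and mid anagen Clock, Npas2 and Nr1d1 fell, 3 of 7, against 19.7% of all probe sets changed and 9.27% lower. Arntl was at -0.46 ± 0.14 (adjusted p = 0.0590). Without P25 replicate 2 the count was also 3, but with Arntl in place of Clock (adjusted p = 0.0685), and without P27 replicate 3 it was 5. No gene passed between mid and late anagen or between late anagen and early catagen, where 0.00% of all probe sets passed limma in either comparison. At an unadjusted limma p under 0.05 there were 2 of 7 in late against mid anagen, where 5323 of all 26988 probe sets were. The 2 genes were Nr1d1 (0.45 ± 0.16 higher) and Rora (-0.50 ± 0.19). In early catagen against late anagen 1 of 7 was under that p, where 3596 of all 26988 probe sets were. It was Arntl (0.59 ± 0.11 higher, no overlap, adjusted p = 0.148), and the methods' t-test also called 0 in both comparisons.

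Mid catagen brought a rise of Arntl, Clock, Npas2 and Rora over early catagen, 4 of 7, where 35.3% of all probe sets changed and 17.4% rose. Arntl rose by 0.51 ± 0.15 (adjusted p = 0.0249). Without P41 replicate 2 or 3 only Clock and Rora passed, with Npas2 at an adjusted p of 0.0586 or 0.0510 and Arntl at 0.117 or 0.0770. Nr1d1 and Nr1d2 were at 0.40 ± 0.70 and 0.74 ± 0.51, and for Nr1d1 the error was larger than the difference. The median over the 7 genes was 0.74, against -0.01 over all probe sets.

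Telogen against mid catagen called 3 of 7, Nr1d2 and Bhlhe40 higher and Arntl lower, in a step where 5.88% of all probe sets changed (2.00% higher and 3.88% lower). The arrays of the phases compared overlapped for Npas2. These calls were often lost with 1 array left out. Calls over all probe sets then also fell, from 1586 to between 463 and 960 without P41 replicate 2 or 3 or any P44 array. None of the 3 genes passed without P41 replicate 3 or without P44 replicate 3, with adjusted p between 0.0601 and 0.0964, 1 passed without P41 replicate 2 (Arntl) or P44 replicate 2 (Bhlhe40), and Nr1d2 was lost without P44 replicate 1 (adjusted p = 0.0800). In telogen against late anagen 5 of 7 rose, where 44.6% of all probe sets changed and 23.0% rose, and Arntl was at -0.19 ± 0.12 (adjusted p = 0.262) and Npas2 at 0.43 ± 0.46. The median of the 7 genes was 0.73 there, against -0.01 over all probe sets. Bhlhe40 rose by 0.73 ± 0.19 there (adjusted p = 0.0194), with adjusted p of 0.0516 without P44 replicate 1 and 0.0592 without P44 replicate 3. The comparisons that include telogen share its 3 arrays.

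**Figure D2:**
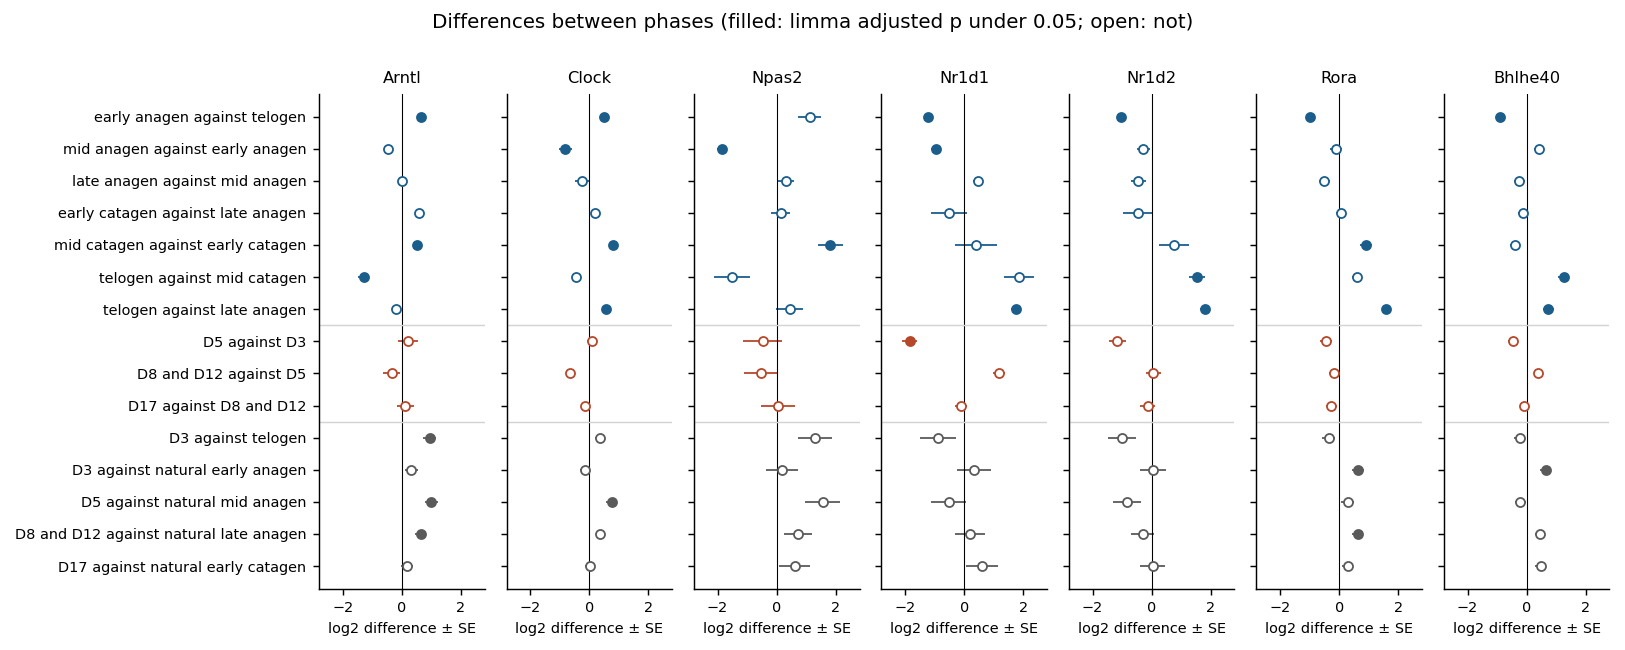
Log2 difference ± SE of the main probe set of each gene (1 panel a gene) in 15 comparisons, natural cycle in blue, depilation cycle in red and between the cycles in grey, with positive values higher in the phase named before "against". Filled points passed an adjusted p under 0.05. Telogen against late anagen has 5 filled points, all to the right of 0, and late against mid anagen has none.

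Markers of other cell types moved in the same steps. Of the 9 myocyte genes 9 were higher in telogen than in late anagen, with summed signals of 182472 to 204623 in telogen and 62318 to 90175 in late anagen, and 5 of 5 leukocyte genes were also higher. The 5 genes of dividing cells were all lower there, at 1518 to 1990 in telogen and 10043 to 10748 in late anagen. In mid against early catagen 8 of 9 myocyte genes and 4 of 5 leukocyte genes rose and 5 of 5 dividing-cell genes fell. No gene of these lists was under the floor on all arrays. In telogen against mid catagen 4 of 9 myocyte genes, 2 of 5 leukocyte genes and 1 of 2 mesenchyme genes were higher, with myocyte sums of 182472 to 204623 in telogen and 122086 to 134634 in mid catagen, and 0 of 5 dividing-cell genes passed limma. In mid against early anagen 5 of 9 myocyte genes, 2 of 5 leukocyte genes, 2 of 2 mesenchyme genes and 2 of 4 cornified-layer genes fell, with myocyte sums of 71842 to 95133 in mid anagen and 101498 to 131940 in early anagen. The part of all these cells in the values of the clock genes was not tested.

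After depilation Nr1d1 was the gene that changed between D3 and D5. Its signals were 891 and 918 at D3, 239 and 267 at D5, 525 and 570 at D8, 712 and 500 at D12 and 429 and 651 at D17. D5 was thus lowest with its 2 mice close together, and D3 was highest. D5 fell by 1.84 ± 0.25 on the log2 scale (3.58-fold, limma on the 10 depilation arrays, adjusted p = 0.0146), and this was the only call among 7 genes in a step that called 2.66% of all probe sets and 0.715% as lower. With either D3 array left out the adjusted p was 0.0666 or 0.0565, and fitting all 33 arrays jointly gave 0.0886. Nr1d2 had 5271 and 3952 at D3 and 2056 and 1995 at D5 (-1.17 ± 0.29, adjusted p = 0.0790), then 2376 and 2872 at D8, 2010 and 1444 at D12 and 1500 and 2484 at D17.

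Clock was high until D5 and then lower, with 932 and 985 at D3, 1081 and 951 at D5, 750 and 843 at D8, 511 and 562 at D12 and 657 and 540 at D17. All arrays from D8 on were below those of D3 and D5. Over the 5 time points Clock (F = 12.1, adjusted p = 0.0322) and Nr1d1 (F = 14.7, adjusted p = 0.0237) passed the F test, 2 of 7 genes, where 10.2% of all probe sets did. Leaving out an array brought this count to 0 or 1 for 9 of the 10 arrays, the exception being D5 replicate 2. No gene passed in D8 and D12 against D5 (0.545% of all probe sets). There 3 of 7 had an unadjusted limma p under 0.05, as did 4796 of all 26988 probe sets. The 3 were Nr1d1 (1.18 ± 0.21 higher, adjusted p = 0.0678), Clock (-0.64 ± 0.14, adjusted p = 0.106) and Bhlhe40 (0.39 ± 0.15 higher, adjusted p = 0.241). In D17 against D8 and D12 no gene passed (0.00% of all probe sets), and 0 of 7 had an unadjusted p under 0.05, against 948 of all 26988 probe sets.

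Arntl had no such course after depilation, with 506 and 724 at D3, 775 and 645 at D5, 550 and 546 at D8, 444 and 729 at D12 and 797 and 458 at D17 (F = 0.346, adjusted p = 0.889). At D3, D12 and D17 the 2 mice of a day lay further apart than the highest and lowest day means, which differed by 1.29-fold. Rora gave 3727 and 4004 at D3, 2403 and 3324 at D5, 3217 and 2873 at D8, 1813 and 2371 at D12 and 2194 and 1990 at D17 (F = 6.55, adjusted p = 0.0804). Bhlhe40 lay between 912 and 1412 on all 10 arrays and Npas2 between 39.9 and 185.

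Set against the natural cycle, depilated skin had more Arntl at D3 than in telogen and more at D5 and at D8 with D12 than in the matching natural phases. Against those phases Rora was also higher at D3 and at D8 with D12, Clock at D5 and Bhlhe40 at D3. For Arntl D3 exceeded telogen by 0.94 ± 0.23 on the log2 scale (506 and 724 at D3 against 311, 328 and 306 at P44, adjusted p = 0.00309), the only call among the 7 where 33.1% of all probe sets changed and 13.4% rose. Without D3 replicate 2 its adjusted p was 0.0729, and without P44 replicate 2 the count was 2. Nr1d2 was 2.00-fold lower at D3 (adjusted p = 0.111) and Nr1d1 stood at -0.89 ± 0.60 (adjusted p = 0.273), with no overlap for either, in a fit whose spread includes the wide Nr1d1 and Nr1d2 values of catagen. Leukocyte markers were lower at D3 than in telogen (4 of 5 genes, sums of 12008 to 29256 at D3 and 45948 to 64498 in telogen) and dividing-cell markers higher (5 of 5, sums of 9024 to 11576 at D3 and 1518 to 1990 in telogen), and their part in these values was not tested.

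Compared phase by phase, Rora and Bhlhe40 were higher at D3 than in natural early anagen, by 0.63 ± 0.20 (adjusted p = 0.0151) and 0.65 ± 0.19 (adjusted p = 0.00764), 2 of 7 where 44.6% of all probe sets changed and 18.5% rose. The count was 1 without P25 replicate 2, where Rora had an adjusted p of 0.0616, 1 without D3 replicate 2 and 0 without D3 replicate 1. Myocyte genes were higher at D3 in 5 of 9 cases, with sums of 184961 to 252893 at D3 and 101498 to 131940 in natural early anagen. Arntl and Clock were higher at D5 than in natural mid anagen, by 1.00 ± 0.23 (2.00-fold, adjusted p = 0.00325) and 0.75 ± 0.18 (adjusted p = 0.00514), 2 of 7 where 23.6% changed and 9.18% rose, but without D5 replicate 1 neither passed (adjusted p = 0.0675 and 0.0837). Npas2 was 1.55 ± 0.58 higher in the same comparison (adjusted p = 0.0553), with 2 of 3 P27 arrays at the floor. Here too 5 of 9 myocyte genes were higher, with sums of 107038 to 175498 at D5 and 71842 to 95133 in mid anagen, and the part of these cells in the values was not tested.

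At D8 and D12 Arntl was 0.64 ± 0.19 above natural late anagen (adjusted p = 0.0158) and Rora 0.62 ± 0.18 above it (adjusted p = 0.0145), 2 of 7 where 26.5% of all probe sets changed and 10.6% rose. Neither passed without P29 replicate 2 or without D12 replicate 2 (adjusted p between 0.0539 and 0.101). Of the markers, 4 of 9 myocyte genes, 4 of 5 leukocyte genes and 3 of 4 cornified-layer genes were higher at D8 and D12, with leukocyte sums of 17440 to 22956 against 7832 to 10308 in late anagen. With P34, which had an Arntl signal of 593, added to late anagen, the Arntl difference was 0.28 (adjusted p = 0.306). No gene passed in D17 against natural early catagen (15.3% of all probe sets), with Bhlhe40 at 0.48 ± 0.18 (unadjusted p = 0.0127, the 1 of 7 under 0.05, adjusted p = 0.0702), and Bhlhe40 alone passed without P39 replicate 2. Of all 26988 probe sets 7696 had an unadjusted p under 0.05 in that comparison. The difference between the cycles in the change over the growth phase was also tested itself, as D8 and D12 minus D3 less P29 minus early anagen. That test called 0 of 7 genes, against 18.2% of all probe sets. At an unadjusted p under 0.05 there was 1 of 7, where 8930 of all 26988 probe sets were. It was Clock at 0.50 ± 0.23 (adjusted p = 0.131). The remaining 6 genes ranged between -0.36 ± 0.60 for Nr1d2 and 0.54 ± 0.73 for Npas2.

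The probe sets of 1 gene did not always run together, and the sources used here do not say which transcripts each one reads. Among the 9 Rora probe sets, 1424034_at (the main one), 1420583_a_at, 1455165_at and 1436325_at had nearly the same course, with r of 0.92 to 0.98 to the main one over the 14 time point means. A further probe set, 1436326_at, had signals of 3500 and 3885 at D3, against 1349, 1573 and 1735 at P44, and 1772 and 2682 at D5, 1993 and 2521 at D8, 1167 and 1952 at D12 and 1826 and 1443 at D17. On the main probe set, in contrast, D3 with 3727 and 4004 was below telogen with 4501, 5273 and 4988. The difference between D3 and telogen was 1.26 ± 0.24 on 1436326_at (adjusted p = 4.3e-04) and -0.35 ± 0.22 on the main probe set (adjusted p = 0.230). This Rora probe set was also 2.23 ± 0.23 higher at D3 than in natural early anagen, where its arrays gave 706, 788, 902 and 761 (adjusted p = 1.8e-07), and 1.53 ± 0.20 higher at D8 and D12 than in late anagen (adjusted p = 1.3e-05). Within the natural cycle both fell in early anagen relative to telogen, by 0.97 ± 0.14 on 1436326_at and 0.98 ± 0.14 on the main one. The other Rora probe sets had r of 0.79 (1458129_at), 0.40 (1424035_at), -0.06 (1458145_at) and 0.44 (1441085_at, not kept) to the main one. On 1458129_at telogen gave 545, 870 and 808, above late anagen with 368, 350 and 429. On 1424035_at telogen gave 162, 435 and 291 and late anagen 260, 231 and 225, which overlap.

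For Arntl the other probe set, 1457740_at, with signals of 45.7 to 237, did not follow the main one (r = 0.35 over the 14 means). In early anagen against telogen it gave -0.83 ± 0.33 (adjusted p = 0.101), with 48.8, 45.7, 105 and 59.8 in early anagen and 89.3, 95.2 and 150 in telogen, where the main probe set rose. In telogen against mid catagen it gave 0.09 ± 0.31 (adjusted p = 0.890), against -1.29 on the main probe set. The calls for Arntl in single steps of the natural cycle therefore hold for the main probe set alone. The same is true of its call at D8 and D12, where 1457740_at gave -0.31 ± 0.31 (adjusted p = 0.492), and of the call in D3 against telogen, where it gave 0.71 ± 0.37 (adjusted p = 0.145) with overlapping arrays. For D5 against natural mid anagen both Arntl probe sets were higher, by 1.30 ± 0.37 on 1457740_at (adjusted p = 0.0129). Clock 1435775_at followed the Clock main probe set (r = 0.91), 1418660_at less closely (r = 0.79) and 1439314_at not at all (r = 0.01). On 1418660_at the Clock call in telogen against late anagen was not made (0.39, adjusted p = 0.179). Those in early anagen against telogen, mid against early anagen and mid against early catagen were. On 1439314_at early anagen gave 77.5, 166, 48.7 and 77.0 and mid anagen 173, 194 and 314, where the main Clock probe set fell. At D5 against natural mid anagen 1418660_at gave 0.08 (adjusted p = 0.860) where the main Clock probe set rose, and at D3 against natural early anagen it fell by 1.24 ± 0.24 (adjusted p = 3.2e-04) where the main one gave -0.14 ± 0.17. The calls of Nr1d2 that involve telogen in the natural cycle were not made on its second probe set, 1416959_at. It gave 468, 965 and 926 at P44 and 343, 377 and 556 at P29, which overlap (0.85 ± 0.33, adjusted p = 0.0766), with 1.22 in telogen against mid catagen (adjusted p = 0.164) and -0.95 in early anagen against telogen (adjusted p = 0.0634). At D3, with 234 and 152, it was lower than in telogen (-1.99 ± 0.56, adjusted p = 0.00880), where the main probe set did not pass. It was also lower after depilation than in the matching natural phase at D5 (-2.11 ± 0.56, adjusted p = 0.00875) and at D8 and D12 (-1.75 ± 0.47, adjusted p = 0.00804), where the main Nr1d2 probe set gave -0.83 ± 0.47 and -0.31 ± 0.40.

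**Figure D3:**
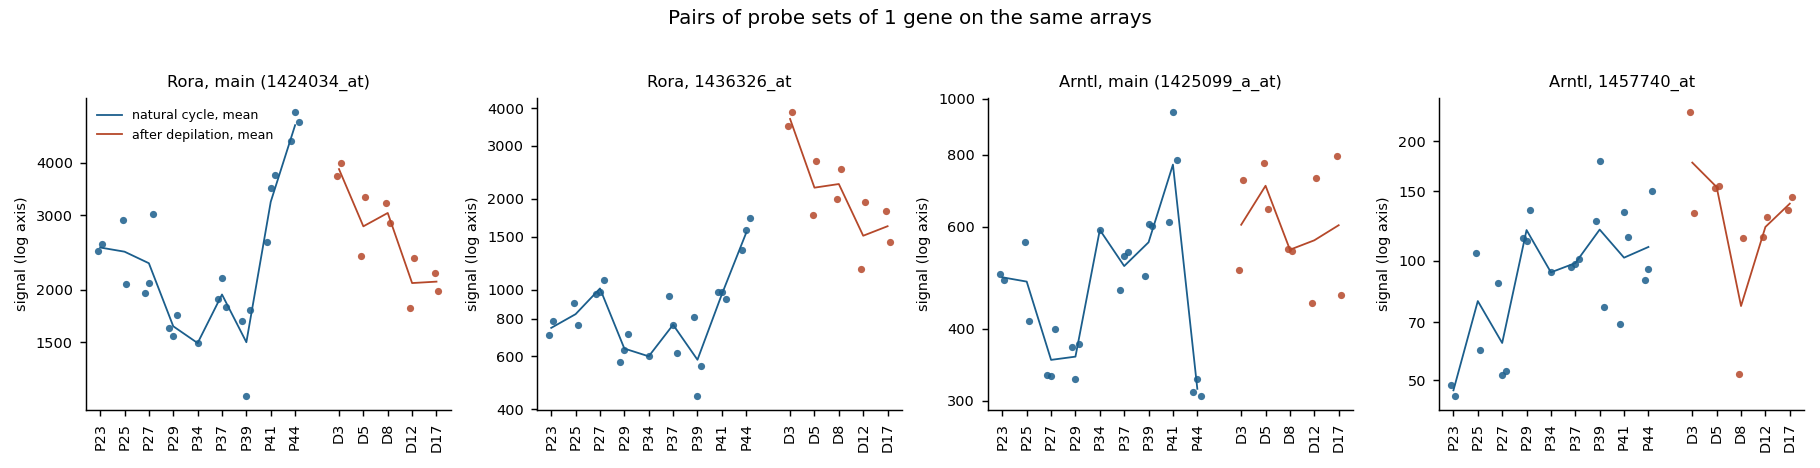
Signal (log axis) of pairs of probe sets of Rora and of Arntl on the same 33 arrays, natural cycle in blue and after depilation in red, points being mice and lines means of log2 signal. At D3 the Rora probe set 1436326_at stands at 3500 and 3885, above its own P44 values, while the main Rora probe set is below its P44 values.

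Mice of the same time point differed from each other, and these deviations were compared between genes over the 32 arrays of time points with more than 1 array. Of the 21 pairs 5 passed a permutation of arrays within time points (100000 resamples, two-sided, Benjamini-Hochberg over the 21 pairs). Pairs of other genes were not put to this test, so the count does not set these genes apart. The part of cell makeup in the deviations was not tested. Nr1d1 and Nr1d2 deviated together, with Pearson r = 0.87 (permutation p = 0.00171, adjusted p = 0.0244) and Spearman rho = 0.69 (p = 0.00483, adjusted p = 0.0324, same permutation). Arntl and Clock gave r = 0.52 (permutation p = 0.00232, adjusted p = 0.0244) and rho = 0.59 (adjusted p = 0.0324), and Clock and Npas2 r = 0.45 (permutation p = 0.00636, adjusted p = 0.0334) and rho = 0.54 (adjusted p = 0.0324). Arntl and Npas2 had r = 0.61, which did not pass (permutation, adjusted p = 0.0514). Over these 32 arrays Clock thus varied between mice together with Arntl and with Npas2, and the REV-ERB genes varied with each other. Of the Npas2 values 5 were set to the floor.

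Bhlhe40 deviated in the opposite direction to Rora (r = -0.65, permutation p = 0.00451, adjusted p = 0.0316, rho = -0.67, adjusted p = 0.0324) and to Npas2 (r = -0.60, permutation p = 0.00954, adjusted p = 0.0401, rho = -0.62, adjusted p = 0.0324). Arntl and Nr1d1, whose products lie on opposite sides of the loop, gave r = -0.40 (permutation p = 0.0409, adjusted p = 0.0955) and rho = -0.49 (adjusted p = 0.101), which did not pass. With the 2 arrays farthest from the median of the gene named before its partner left out, r was 0.76 for Nr1d1 and Nr1d2, 0.48 for Arntl and Clock, 0.53 for Clock and Npas2, -0.55 for Rora and Bhlhe40 and -0.53 for Npas2 and Bhlhe40. Within the natural cycle alone (22 arrays) Nr1d1 and Nr1d2 gave r = 0.87 and Rora and Bhlhe40 -0.71 (permutation, adjusted p = 0.0404 for each), while Arntl and Clock gave 0.51 (adjusted p = 0.125). Within the 10 depilation arrays r was 0.84, -0.37 and 0.83 for these pairs, where 5 pairs of mice allow no permutation p below 0.0625.

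**Figure D4:**
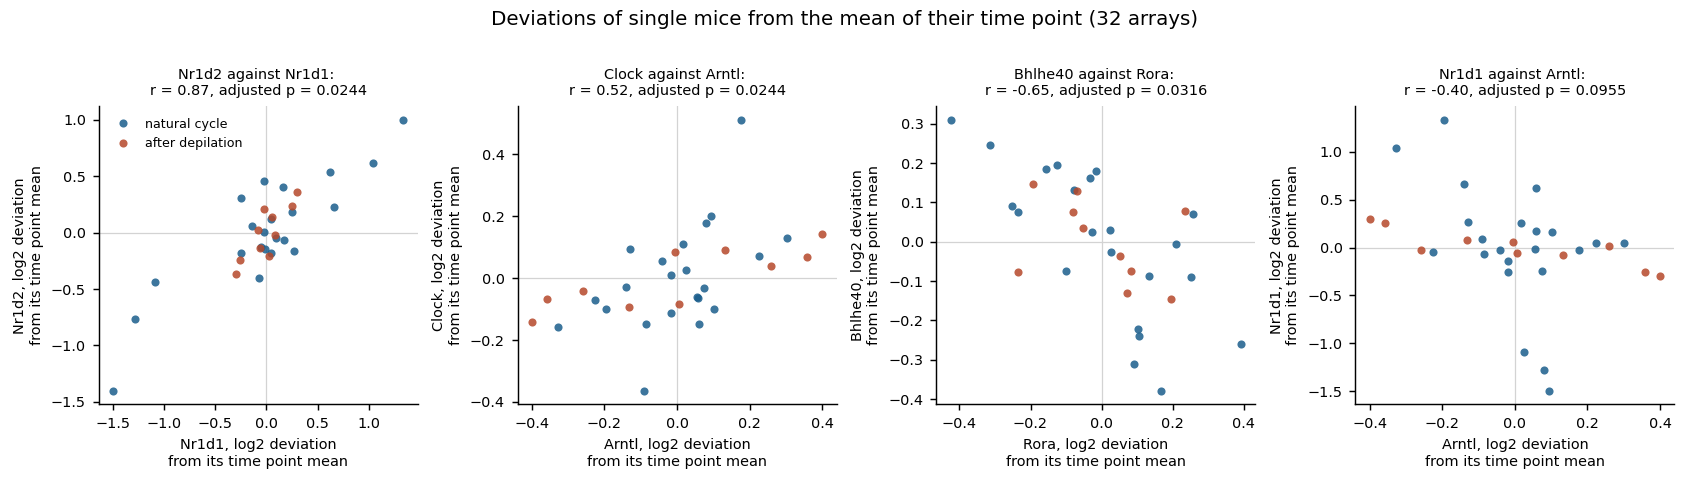
Deviation of each mouse from the mean of its time point (log2 signal) for pairs of genes, natural cycle in blue and after depilation in red, 32 arrays. Nr1d2 against Nr1d1 lies along a rising line (r = 0.87) and Bhlhe40 against Rora along a falling one (r = -0.65), while Nr1d1 against Arntl (r = -0.40) did not pass.

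The widest deviations of Nr1d1 came from a few catagen mice. P37 replicate 3 with 175, P39 replicate 3 with 102 and P41 replicate 3 with 217 were the lowest of their days for Nr1d1, and the same mice were lowest of their days for Nr1d2. Other clock genes did not share 1 direction in these mice. Dbp, an E-box target, gave 751, 1259 and 258 at P37, 1232, 832 and 194 at P39 and 1734, 195 and 232 at P41. Replicate 3 of P37 and of P39 was again the lowest, and at P41 replicates 2 and 3 were both low. Per2, also an E-box target, gave 189, 266 and 321 at P37, 234, 291 and 330 at P39 and 154, 125 and 500 at P41, so that replicate 3 was the highest of each day. Cry1, named here after its values were seen, was likewise highest in replicate 3. It gave 293, 404 and 680 at P37, 347, 626 and 640 at P39 and 181, 501 and 607 at P41. Replicate 3 was male on each of these days, as was replicate 2 at P37 and P41. The part of sex in these deviations was not tested. The myocyte sums of the P37 mice were 82456, 94843 and 74011, those of P39 88047, 67034 and 63572 and those of P41 127477, 122086 and 134634, so that replicate 3 was lowest at P37 and P39 and highest at P41.

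Of 20 further clock genes (PER and CRY repressors, PAR-bZIP factors, casein kinases and others) 14 had a kept probe set with a single symbol, Bhlhe41 and Rorb being among those below the filter. In early anagen against telogen 9 of 14 changed, 8 lower and 1 higher, where 26.8% of all probe sets changed, with a median log2 difference of -1.26, against -0.05 over all probe sets and -0.89 over the 7 genes above. Per2 fell by 2.86 ± 0.19 (adjusted p = 3.2e-04), Dbp fell by 2.69 ± 0.24 (adjusted p = 6.6e-04) and Per3 fell by 2.17 ± 0.15 (adjusted p = 3.6e-04), while Timeless, which also acts in DNA replication, was the 1 that rose (adjusted p = 9.3e-04). In telogen against late anagen 11 of 14 changed, 8 higher, with a median of 1.14, where 44.6% of all probe sets changed and 23.0% rose. Dbp was 2.98 ± 0.20 higher (adjusted p = 1.8e-04) and Nfil3, which opposes DBP at D-boxes and is repressed by REV-ERB, differed by -2.41 ± 0.38 (adjusted p = 0.00287). In the depilation cycle 3 of 14 passed in D5 against D3 (2.66% of all probe sets), among them Nfil3 (1.58 ± 0.23 higher, adjusted p = 0.0179) and Hlf (-1.55 ± 0.16, adjusted p = 0.00638), and 7 of 14 passed in D3 against telogen, 5 of them lower, where 33.1% of all probe sets passed.

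As a description, the genes whose 14 time point means ran most like each member were found among 12866 other genes, with no test, since the points share arrays, cell makeup and age. The nearest to Rora was Ctdsp2 (r = 0.972), to Clock Rab11fip3 (r = 0.947), to Nr1d1 Micu2 (r = 0.936) and to Nr1d2 Lrch3 (r = 0.931). The nearest to Npas2 was Acp5 (r = 0.901), to Bhlhe40 Arih2 (r = 0.849), with the clock output gene Hlf next at 0.844, and to Arntl Car12 (r = 0.819). None of the 7 genes was among the 3 nearest of another.

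Phases were also ranked by their mean log2 signal, and neighbours in rank were compared by the overlap of their arrays, with no test. The share of all probe sets with such gaps was not counted. For Arntl the arrays did not overlap between mid and early catagen, between early and late anagen or between mid anagen and telogen, whereas early catagen overlapped with early anagen, and late and mid anagen differed by 0.02 on the log2 scale. Late anagen, with Arntl at 327 to 377, did overlap with telogen at 306 to 328. For Nr1d1, Nr1d2, Rora and Bhlhe40 telogen did not overlap with the next phase, with gaps of 1.22, 1.05, 0.60 and 0.48 on the log2 scale, and every further pair of neighbours in rank overlapped. For Clock, early anagen and mid catagen overlapped, and mid catagen was separated from telogen by 0.45. For Npas2, early anagen lay above telogen by 1.11 with no overlap and 1 telogen array at the floor. Its other neighbours in rank overlapped.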

How the data were processed

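The authors hybridized dorsal skin RNA of each mouse to its own Affymetrix array for the mouse genome. The deposited intensity values are linear MAS 5.0 signals that the authors had scaled to a common mean per array. Phases follow the series design text. Sample descriptions of P41, P44 and all depilation samples read early anagen and were not used. All 45037 probe sets were read. The 25th percentile over the whole table, 34.6, served as floor before log2 was taken, and the 26988 probe sets above the array median on at least 3 of 33 arrays were kept. Probe sets were named by a platform annotation table, with 34945 having a single symbol.

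Differences were tested with limma 3.58.1 (R 4.3.3, lmFit and eBayes, Benjamini-Hochberg over all kept probe sets, adjusted p under 0.05). Comparisons of natural phases used only the arrays compared, as in the methods of the study, steps after depilation the 10 depilation arrays, and comparisons between cycles all 33 arrays with 1 mean per time point. No array was dropped or imputed in a main fit. Correlations, promoters and figures used Python 3.11.15, scipy 1.17.1 and matplotlib 3.10.9. The scripts were tested on simulated data. The members, gene lists and comparisons were chosen with earlier results of these data known. Genes named are the 7 members, further clock genes past the test in early anagen against telogen or telogen against late anagen, and the nearest genes by correlation. Cry1 passed neither test and was named after its values were seen. Alternatives were another floor (10th or 40th percentile), no filter or a filter on 17 arrays, quantile or median scaling, a joint fit, sex as a covariate, the second kept probe set where a gene had one, P23 or P25 alone, P34 added, the methods' t-test, a replicate block, and each array left out. Each mouse had its own array, and their number limits the precision. Over all kept probe sets, deviations of same-numbered arrays were at most weakly correlated, so the main fits have no block.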

Additional observations from a re-analysis of the deposited data

Results flagged for a closer look

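In 21 groups of 4 or 6 arrays (7 genes in early anagen, early catagen and D8 with D12), 1 value stood far from the others, and chance flags about 1 in 20 groups. Rora on P39 replicate 2 had a signal of 1119, where the other 5 early catagen arrays lay between 1684 and 2137, and the gap to the nearest of them was 0.632 of the whole log2 range of the group. On the same array the summed signal of the 4 cornified and suprabasal genes was 7767, against 39559 to 59882 on the other early catagen arrays. The part of this in the Rora value was not tested.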

How the results depend on the processing

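The 38 calls of a gene in a comparison were repeated under the alternatives. F tests have no direction, so for those calls only significance was compared. With all arrays this gave 415 values, of which 379 kept significance without reversing, 32 lost significance without reversing and 4 reversed. With 1 array left out it gave 366 values, of which 314 kept significance, 52 lost it and 0 reversed. The 4 reversals were all Arntl on its other probe set, at -0.83 in early anagen against telogen, -0.09 in mid against early catagen, 0.09 in telogen against mid catagen and -0.31 in D8 and D12 against late anagen, with adjusted p of 0.101, 0.814, 0.890 and 0.492. The cause was not tested.

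Counts of the 7 genes that passed moved as follows. With the second probe set of Arntl, Clock, Nr1d2 and Rora and the main one of the rest, 1 passed in telogen against mid catagen (Bhlhe40). In that setting 3 passed in telogen against late anagen (Nr1d1, Rora and Bhlhe40) and 4 in D3 against early anagen (Arntl, Clock, Rora and Bhlhe40). It gave 1 in the F test after depilation and 2 (Arntl and Clock) in the difference between cycles. Npas2, Nr1d1 and Bhlhe40 had no second kept probe set, so their calls there repeat the main ones. With P25 alone as early anagen 2 passed against telogen and 1 in D3 against early anagen. In the joint fit of 33 arrays 5 passed in telogen against mid catagen, 0 in D5 against D3 and 1 in D8 and D12 against D5, and Nr1d1 had an adjusted p of 0.0678 in early anagen against telogen and 0.161 in mid against early anagen. With sex as a covariate 5 passed in telogen against mid catagen, 3 in D3 against telogen and 4 in D5 against mid anagen. Median centring gave 4 in D8 and D12 against late anagen and 1 in D17 against early catagen, the methods' t-test 0 in telogen against mid catagen, and no filter 1 in the F test after depilation. Of the 21 gene pairs 3 passed in the natural cycle alone and 0 after depilation alone.

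With 1 array left out at a time, the count ranged from 2 to 5 in mid against early anagen (5 without P27 replicate 3) and in mid against early catagen, 0 to 4 in telogen against mid catagen, 0 to 1 in D5 against D3, 0 to 2 in D3 against telogen and D3 against early anagen, 0 to 3 in D5 against mid anagen and D8 and D12 against late anagen, 0 to 1 in D17 against early catagen and 0 to 2 in the F test after depilation. It was 5 to 6 in early anagen against telogen, 4 to 5 in telogen against late anagen and 7 throughout in the natural F test.

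Replicate numbers were not taken to pair the mice. Over 45 pairs of same-numbered arrays from 6 time points, the correlation of their deviations lay between -0.20 and 0.19, and 6 were over 0.1. That check covers all kept probe sets, so it cannot exclude a factor that same-numbered mice share in clock genes alone. With the replicate number as a block, 2 genes passed in D3 against telogen, 1 in the F test after depilation, and 5 in early anagen against telogen (Arntl at an adjusted p of 0.0551). Over all probe sets, early anagen against telogen had 7221 calls, 4703 with that block, 4597 with P23 alone and 1768 with P25 alone. Mid against early anagen had 5320 calls, 3079 without the filter, 2524 by the methods' t-test, 2232 with P23 alone and 801 with P25 alone. Telogen against mid catagen had 1586 calls, 2728 in the joint fit, 813 by the t-test and 530 with the block. D5 against D3 had 718 calls, 2180 in the joint fit and 327 with the block, D8 and D12 against D5 had 147, 1498 and 46, and the F test after depilation had 2757, 1661 without the filter and 1593 with the block. Late against mid anagen, with 0 calls, had 833 in the joint fit, none of them one of the 7 genes. Median centring moved the median of all probe sets by over 0.1, to 0.10 in early anagen against telogen (-0.05 otherwise), -0.18 in mid against early anagen (-0.01), 0.05 in D3 against telogen (-0.08), 0.09 in D5 against mid anagen (-0.06), 0.13 in D8 and D12 against late anagen (-0.04), 0.11 in D17 against early catagen (-0.03) and 0.20 in the difference between cycles (0.01). It thereby gave 70.3% of calls as higher in early anagen against telogen (50.6% otherwise), 33.4% in mid against early anagen (53.0%), 17.3% in telogen against mid catagen (34.0%), 55.7% in D3 against telogen (40.5%), 59.6% in D5 against mid anagen (38.8%), 63.8% in D8 and D12 against late anagen (39.9%), 60.8% in D17 against early catagen (35.9%) and 77.2% in the difference between cycles (58.1%). No call of the 7 genes changed sign under either scaling. Npas2, with 5 arrays under the floor, is limited by its low signal.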
